A study of Mus musculus with 6 samples.

Results

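IL-4 and IL-13 signal to airway smooth muscle through a small set of receptor chains and kinases, and 8 genes of this set were looked for by symbol in BSMCs (bronchial smooth muscle cells): the receptor chains Il13ra2, Il13ra1, Il4ra and Il2rg, the kinases Jak1 and Tyk2, the transcription factor Stat6 and the inhibitor Socs1. Of these 8 genes, 7 had a named probe set among the 20239 genes tested. Il2rg was not analysed here. The 3 OVA samples came from mice with allergic airway inflammation, given intraperitoneal ovalbumin (OVA, 50 µg) in alum on days 0 and 7. The 3 PBS samples came from control mice given PBS in its place, and whether that PBS held alum is not stated. Both groups then breathed nebulized OVA on 5 days, from day 14 to day 18, and cells were taken on day 19. The contrast is therefore that of the sensitizing injections, OVA in alum against PBS, and not of the inhaled OVA. All mice were adult C57BL/6J carrying 2 transgenes, αSMA-hrGFP, driven by the rat α-smooth muscle actin promoter, and NG2-DsRed, driven by the mouse Cspg4 promoter. According to the methods, BSMCs were sorted as CD45- CD31- hrGFP+ DsRed- lung cells and each RNA sample was a pool of several mice. The sample labels instead name single animals and microdissected muscle, and they give the OVA injections for every sample. Whether the samples of a group share mice or a sorting day is not stated, so p-values measure only the spread between these arrays.

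IL-4 and IL-13 share a receptor made of IL-4Rα and IL-13Rα1, and IL-4 can also signal through IL-4Rα with the common γ chain. The chains carry JAK kinases, which phosphorylate STAT6, and STAT6 enters the nucleus and turns on its target genes. IL-13Rα2 binds IL-13 with high affinity but has a short tail that carries no JAK, and it is known mainly as a decoy. SOCS1 is induced by cytokines and inhibits the JAKs. In asthma models this pathway is known for its part in mucus production, eosinophil recruitment and airway hyper-reactivity.

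The array OVA 2 stood apart from the others. Its Euclidean distance from the mean of the other 5 arrays was 83.2, against 28.6 and 45.9 for OVA 1 and OVA 3 and 27.5 to 40.7 for the PBS arrays. Levels on OVA 2 were compressed, with a slope of -0.17 on the level of the other arrays, so genes of low level tended to lie higher there and genes of high level lower. Results are given without this array, as the study's methods left out 1 asthma array, and again with all 6. The smooth muscle gene Acta2 was at 12.44, 12.09 and 12.52 on the OVA arrays (log2 levels, as are all levels below), against 12.39, 11.87 and 12.13 on the PBS arrays. The mean of 15 leukocyte markers was 8.05, 6.56 and 8.34 on OVA 1, OVA 2 and OVA 3, against 6.95, 7.89 and 7.85 on the PBS arrays. Ptprc, the gene of the CD45 protein that the sort removed, was at 8.09, 6.18 and 8.31 on the OVA arrays, against 6.84, 8.10 and 7.77 on the PBS arrays. In such bulk samples, more cells of a type and more RNA per cell cannot be told apart.

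Il13ra2 was the only one of the 7 genes to pass the FDR threshold of 0.25, and it did so in the fit without OVA 2. Its level was 5.59 on OVA 1, 5.03 on OVA 2 and 6.21 on OVA 3, against 3.74, 3.63 and 3.48 on PBS 1, PBS 2 and PBS 3. Every OVA array lay above every PBS array, and OVA 2 was the lowest of the OVA arrays. Without OVA 2 the mean was 5.90 ± 0.44 (SD, n = 2) in OVA samples and 3.62 ± 0.13 (SD, n = 3) in PBS samples, a log2 fold change of 2.28 (standard error 0.191, 95% confidence interval 1.82 to 2.75) or 4.87-fold (adjusted p = 0.183, limma). With all 6 arrays the log2 fold change was 1.99 (standard error 0.283, 95% confidence interval 1.33 to 2.65), 3.98-fold, and did not pass (adjusted p = 0.635, limma). Ordered by unadjusted p, Il13ra2 ranked 2 of 20239 genes without OVA 2 and 4 with all 6 arrays. The call rested on few arrays. It was lost without OVA 3 (log2 fold change 1.97, adjusted p = 0.747), without PBS 1 (2.35, adjusted p = 0.293) and without PBS 2 (2.29, adjusted p = 0.423), all from limma with OVA 2 also left out. It was kept without OVA 1 (2.59, adjusted p = 0.125) and without PBS 3 (2.21, adjusted p = 0.211). Without OVA 1 or OVA 3 a single OVA array remained, which was assumed to vary like the PBS arrays. The PBS levels lay below the lower quartile of their arrays, 5.28 to 5.35, and the values used here carry no detection call. Whether the gene was above background in PBS samples is therefore not known, and the fold changes are those of the measured levels.

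**Figure D1:**
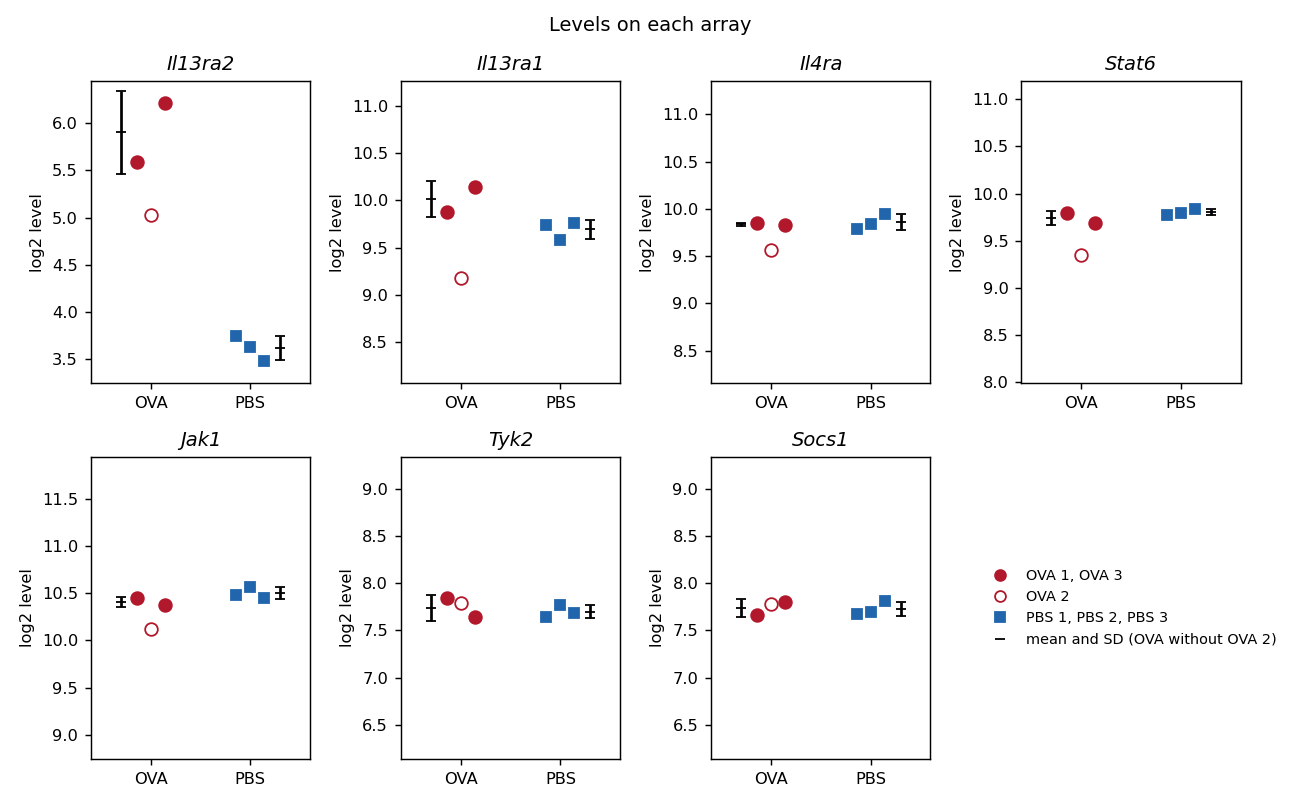
Log2 level of each gene on each array, with OVA arrays on the left (circles, OVA 2 open) and PBS arrays on the right (squares). Black bars give the mean and SD, for OVA without OVA 2, and every panel spans the same number of log2 units. Il13ra2 is the only panel in which all 3 OVA arrays lie above the PBS arrays.

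The RefSeq promoter of Il13ra2 is shown because this is the gene that changed. The 250 bases before its start, at chrX:147429193-147429442 on the minus strand of GRCm38.p6, are given 5′ to 3′ with matches to TATAAA in capitals.
Il13ra2: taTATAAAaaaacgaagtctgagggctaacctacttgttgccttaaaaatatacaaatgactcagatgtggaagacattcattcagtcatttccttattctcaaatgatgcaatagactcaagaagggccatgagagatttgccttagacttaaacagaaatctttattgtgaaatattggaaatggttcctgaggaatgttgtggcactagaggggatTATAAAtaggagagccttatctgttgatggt
The nearer TATAAA begins at position -31, counted from the gene start. These letters, searched on both strands after the sequence had been seen, occur in 13.6% of 32851 RefSeq promoters. That share counts a match at any position from 250 bases before to 50 bases after the start. It is thus for a longer window than the 250 bases shown and not for position -31. The STAT motif, TTC and GAA with 4 or 3 bases of any kind between them, reads the same on both strands and was found in the promoters of 0 of the 8 genes, against 8.01% and 9.55% of 27025 genes. This concerns only the window of 250 bases before to 50 bases after the start.

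Il13ra1, which encodes the chain that pairs with IL-4Rα to bind IL-13, was at 9.88 and 10.15 on OVA 1 and OVA 3 and at 9.18 on OVA 2, against 9.74, 9.58 and 9.76 on the PBS arrays. OVA 1 and OVA 3 lay just above every PBS array and OVA 2 below each of them. Without OVA 2 the log2 fold change was 0.32 (standard error 0.116, 95% confidence interval 0.036 to 0.60), which did not pass (unadjusted p = 0.0328, adjusted p = 0.516, limma). With all 6 arrays it was 0.042 (95% confidence interval -0.53 to 0.61), with overlapping groups.

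Il4ra, the chain common to both receptors, was at 9.85, 9.56 and 9.83 on the OVA arrays, against 9.79, 9.84 and 9.95 on the PBS arrays. The levels of OVA 1 and OVA 3 fell within the range of the PBS arrays. The log2 fold change was -0.022 without OVA 2 (95% confidence interval -0.24 to 0.19) and -0.11 with all 6 arrays (95% confidence interval -0.44 to 0.21), with adjusted p = 0.947 and 0.892 from limma. An increase of Il4ra of the size seen for Il13ra2 lay outside both intervals.

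The decoy chain and the signaling chain were also compared within each array. The level of Il13ra2 minus that of Il13ra1 was -4.28, -4.16 and -3.93 on OVA 1, OVA 2 and OVA 3, against -6.00, -5.95 and -6.28 on the PBS arrays. Only the change of this difference has a meaning, since levels of separate probe sets are not on a common scale. It was 1.95 higher in OVA samples over all 6 arrays and 1.97 higher without OVA 2, with OVA 2 between the other OVA arrays. On OVA 2 genes of the level of Il13ra2 had a median shift of 0.52 and those of the level of Il13ra1 of -0.37, so the difference there also holds the compression of that array. The level of Il13ra2 minus that of Il4ra was -4.25, -4.53 and -3.61 on OVA 1, OVA 2 and OVA 3, against -6.05, -6.21 and -6.47 on the PBS arrays, with OVA 2 the lowest of the OVA arrays. It was 2.11 higher in OVA samples over all 6 arrays and 2.31 higher without OVA 2. For these 2 pairs the exact two-sided permutation test gave p = 0.1 with either set of arrays, which is the smallest p that the number of arrays allows. Both pairs hold the same Il13ra2 levels, which were already seen to separate the groups, so these p-values are not independent evidence.

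The kinases and STAT6 did not pass in either fit. Jak1, which binds IL-4Rα, was at 10.45, 10.12 and 10.37 on the OVA arrays, against 10.49, 10.57 and 10.44 on the PBS arrays. Its log2 fold change was -0.088 without OVA 2 (95% confidence interval -0.30 to 0.12, adjusted p = 0.748, limma) and -0.18 with all 6 arrays. OVA 1 lay within the PBS range, OVA 3 just under it and OVA 2 clearly lowest. Tyk2, the kinase carried by IL-13Rα1, was at 7.84, 7.79 and 7.64 on the OVA arrays, against 7.64, 7.77 and 7.69 on the PBS arrays, with a log2 fold change of 0.039 without OVA 2 (95% confidence interval -0.20 to 0.28) and 0.055 with all 6 arrays. The OVA and PBS values of Tyk2 overlapped. Stat6 was at 9.79, 9.35 and 9.69 on the OVA arrays, against 9.77, 9.80 and 9.84 on the PBS arrays. Its log2 fold change was -0.059 without OVA 2 (95% confidence interval -0.26 to 0.14, adjusted p = 0.829, limma) and -0.19 with all 6 arrays (95% confidence interval -0.55 to 0.17). OVA 1 lay between the PBS arrays and the other OVA arrays below them. Activation of STAT6 is by phosphorylation, which mRNA arrays do not measure.

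Socs1, the inhibitor, was at 7.67, 7.78 and 7.80 on the OVA arrays, against 7.67, 7.70 and 7.81 on the PBS arrays, and the groups overlapped. The log2 fold change was 0.011 without OVA 2 (95% confidence interval -0.22 to 0.24) and 0.026 with all 6 arrays (95% confidence interval -0.26 to 0.31), and its sign changed with the normalization and with the arrays used.

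**Figure D2:**
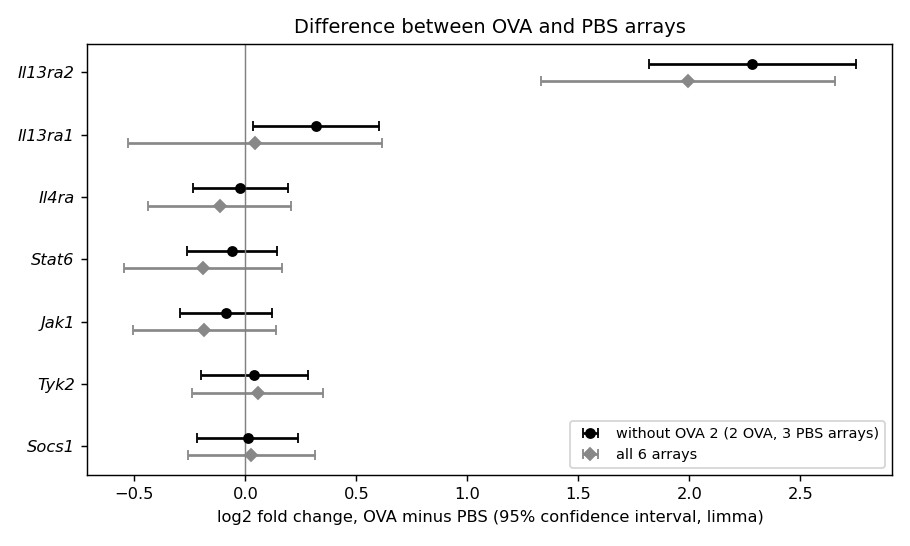
Log2 fold change, OVA minus PBS, of each gene with its 95% confidence interval from limma, without OVA 2 (black circles) and with all 6 arrays (grey diamonds). The intervals of Il13ra2 lie between 1.33 and 2.75, and with all 6 arrays those of the other genes cover 0.

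Counted together, 1 of the 7 genes passed the FDR threshold without OVA 2, against 0.0395% of all genes, and 0 of 7 with all 6 arrays, against 0.00494% (limma). At an unadjusted p under 0.05 the counts were 2 higher and 0 lower without OVA 2, against 4.53% and 4.78% of all genes, and 1 higher and 0 lower with all 6 arrays, against 1.44% and 3.1%. Both OVA arrays lay above every PBS array for 2 genes, Il13ra2 and Il13ra1, against 11.9% of all genes, and below for 0, against 16.8%. With all 3 OVA arrays this held above for Il13ra2 alone, against 4.16%, and below for 0, against 7.83%. The median log2 fold change of the 7 genes was 0.011 without OVA 2, beside -0.022 for all genes.

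The compression of OVA 2 was set beside each gene. Genes whose PBS mean lay within 0.25 of that of Il13ra2 had a median shift of 0.52 on OVA 2 from the PBS mean, over 704 genes, while Il13ra2 itself lay 1.41 above its PBS mean there. On OVA 1 and OVA 3 genes of that level had median shifts of 0.0026 and -0.11, and Il13ra2 lay 1.97 and 2.59 above its PBS mean. For the other receptor chains, Stat6 and Jak1 the shift on OVA 2 was downward both for the gene and for genes of like level. Stat6 lay 0.45 below its PBS mean and genes of its level had a median shift of -0.38, and for Il4ra these values were 0.30 below and -0.39. Tyk2 and Socs1 lay 0.087 and 0.057 above their PBS means on OVA 2, where genes of their level had median shifts of -0.24. With cyclic loess normalization over all 6 arrays, which removes shifts that depend on level, the log2 fold change of Il13ra2 was 1.85 (adjusted p = 0.793, limma). The part of the leukocyte markers, whose mean was lowest on OVA 2, in the level of Il13ra2 was not tested.

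**Figure D3:**
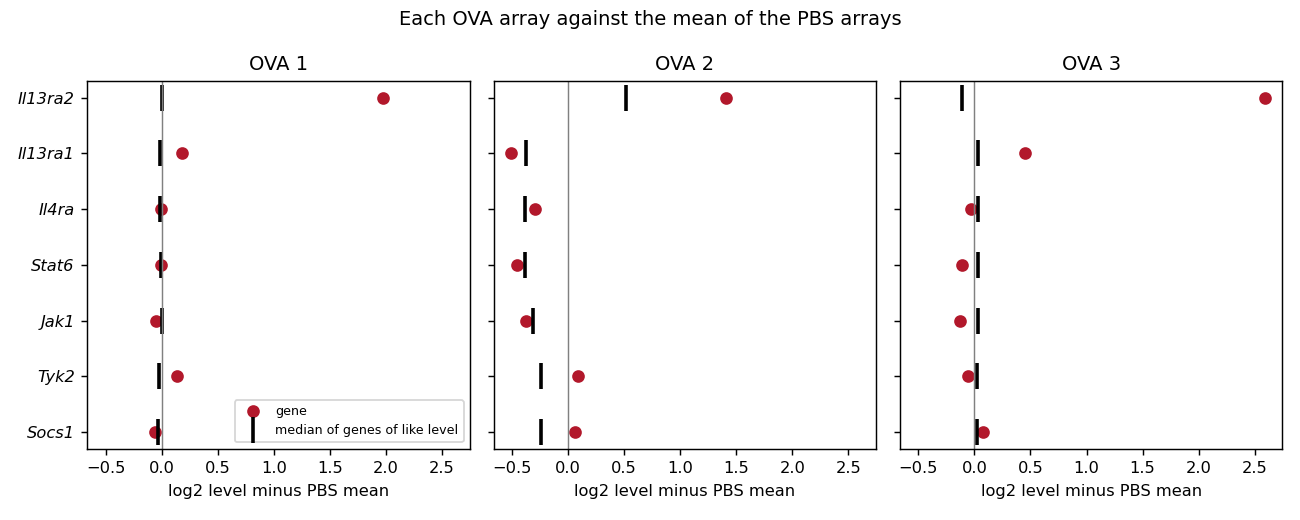
Log2 level on each OVA array minus the mean of the PBS arrays, for each gene (red points) and as the median of genes whose PBS mean lay within 0.25 of it (black ticks). On OVA 2 the ticks run from 0.52 for Il13ra2 to -0.39 for Il4ra, and the points of Il13ra2 lie 1.41 to 2.59 above 0 on the 3 arrays.

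The genes with the pattern most like that of Il13ra2 were found from the root mean square difference of centred levels over the 6 arrays. They were A730020M07Rik, an unnamed RIKEN gene (0.36), Fbp1, which encodes a fructose bisphosphatase (0.38), Tdo2, which encodes an enzyme that breaks down tryptophan (0.38), Cfi, which encodes complement factor I (0.41), and Ccl24, which encodes an eotaxin (0.41). Ccl24 was at 6.34, 6.30 and 7.21 on the OVA arrays, against 5.33, 5.37 and 5.38 on the PBS arrays. For Tdo2 the levels were 8.82, 8.42 and 9.10 on the OVA arrays, against 6.13, 6.98 and 6.98 on the PBS arrays. As for Il13ra2, OVA 3 was the highest array and OVA 2 the lowest of the OVA arrays for both. Cfi differed, at 7.52, 7.56 and 7.55 on OVA 1, OVA 2 and OVA 3. These genes were chosen for their likeness to Il13ra2 on these arrays, so a shared order or a shared rise is not independent evidence. Fbp1 and Cfi passed the FDR threshold without OVA 2 (adjusted p = 0.194 and 0.183, limma), and Cfi also with all 6 arrays (adjusted p = 0.0577).

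Around these genes, 75 further genes of the pathway were measured, in lists of ligands, receptors, kinases and STATs, adaptors and coactivators, negative regulators and STAT6 targets. None of the 75 passed the FDR threshold in either fit (limma). At an unadjusted p under 0.05, 23 were higher and 2 lower without OVA 2, beside 4.53% and 4.78% of all genes. With all 6 arrays 12 were higher and 2 lower, beside 1.44% and 3.1%. Of the higher genes, 17 without OVA 2 and all 12 with 6 arrays were in the list of STAT6 targets. The lists were written with results of these arrays known, so these counts are not independent evidence. No direction was shown for the ligands. Il13, the gene of IL-13, was at 6.29, 6.88 and 6.26 on the OVA arrays, against 6.13, 6.09 and 6.35 on the PBS arrays, and the log2 fold change of Il4 was -0.05 without OVA 2 (standard error 0.167). Il13 was above every PBS array on OVA 2 alone, and the groups overlapped for both genes. Of the 6 other receptors that use the common γ chain, 5 had a positive difference without OVA 2 (median 0.31), beside 8848 of all 20239 genes. The largest was that of Il7r, the IL-7 receptor chain of lymphocytes, with 0.78 (standard error 0.299, unadjusted p = 0.0389, adjusted p = 0.525, limma), and on OVA 2 Il7r was at 5.65, within the PBS range of 5.43 to 6.40. The other 2 named by p were Il2ra, the high affinity chain of the IL-2 receptor, with 0.51, and Il9r, the IL-9 receptor, with 0.18.

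Among the 7 other JAK kinases and STATs, 3 had an unadjusted p under 0.05 without OVA 2, all higher, beside 4.53% of all genes. With all 6 arrays 0 were higher at that p, beside 1.44%. Stat2, a mediator of the interferon response, was 0.39 higher on the log2 scale (standard error 0.103, adjusted p = 0.48, limma), Jak2 0.34 (standard error 0.105) and Stat4, which acts in IL-12 signaling of lymphocytes, 0.50 (standard error 0.183). On OVA 2, Stat2 and Jak2 fell within the PBS range and Stat4 lay below it. The 13 adaptors and coactivators had a median of -0.02, and the 3 smallest p-values were those of Dok1, an adaptor that restrains kinase signaling, with 0.30, Pik3cd, a catalytic subunit of PI3 kinase, with 0.27, and Ncoa1, a coactivator that binds STAT6, with -0.21.

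The negative regulators were divided. Socs3, an inhibitor that acts mainly on receptors of the IL-6 family, was at 10.17, 9.68 and 10.06 on the OVA arrays, against 10.52, 10.76 and 10.51 on the PBS arrays. All 3 OVA arrays lay below every PBS array, and the log2 fold change was -0.48 without OVA 2 (standard error 0.110, unadjusted p = 0.00434, adjusted p = 0.48, limma) and -0.63 with all 6 arrays. Genes of high level also tended to lie lower on OVA 2. Cish, an inhibitor induced by STAT5 and by IL-4, was at 9.29 and 9.40 on OVA 1 and OVA 3 and at 8.41 on OVA 2, against 8.79, 8.64 and 9.08 on the PBS arrays, with a log2 fold change of 0.51 without OVA 2 (standard error 0.142, adjusted p = 0.48, limma) and 0.20 with all 6 arrays. Socs2, an inhibitor of growth hormone signaling, had 0.19 without OVA 2. The median of the 15 negative regulators was 0.045 without OVA 2 and -0.085 with all 6 arrays.

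The largest of the pathway lists was that of STAT6 targets. Of 32 genes known to be induced through STAT6 or by IL-4 or IL-13, 17 had an unadjusted p under 0.05 and a higher level without OVA 2, beside 4.53% of all genes, 1 a lower level, beside 4.78%, and 0 passed the FDR threshold (limma). With all 6 arrays these counts were 12, beside 1.44%, 1, beside 3.1%, and 0. All 3 OVA arrays lay above every PBS array for 12 of the 32, beside 4.16% of all genes. The median log2 fold change was 0.79 without OVA 2 and 0.51 with all 6 arrays, beside -0.022 and 0.027 for all genes. The list was written with results of these arrays known, so its direction is not independent evidence. Cysltr1, a receptor for cysteinyl leukotrienes, was at 9.29, 7.91 and 10.06 on the OVA arrays, against 7.87, 7.32 and 7.57 on the PBS arrays, which is 2.09 on the log2 scale without OVA 2 (standard error 0.258, adjusted p = 0.267, limma). For Slc26a4, an anion exchanger, the difference was 1.29 (standard error 0.159, adjusted p = 0.267), and Postn, the matrix protein periostin, 0.68 (standard error 0.0855, adjusted p = 0.277). For all 3 genes OVA 2 also lay above every PBS array. The lower gene was Egr2, a transcription factor of myeloid and nerve cells, with -0.44 without OVA 2 and -0.49 with all 6 arrays, and it was named after its values were seen.

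Marker lists of other cells also differed between the groups, in both directions, and none of the genes given here passed the FDR threshold. Rnase2a and Alox15 are both STAT6 targets and members of the list of 8 measured eosinophil markers. The mean of this list was 5.96, 5.75 and 6.07 on the OVA arrays, against 5.19, 5.24 and 5.58 on the PBS arrays, with a median log2 fold change of 0.17 without OVA 2. Rnase2a, with 3.94, and Alox15, with 0.80, were among the 3 of 8 higher at an unadjusted p under 0.05, against 4.53% of all genes. The granule protein genes Prg2 and Epx had -0.067 and -0.071 and the surface receptor gene Siglecf 0.060. The mean of 11 macrophage markers was 7.70, 6.91 and 8.03 on the OVA arrays, against 6.73, 7.42 and 7.61 on the PBS arrays. At an unadjusted p under 0.05, 5 of the 11 were higher without OVA 2 (median 0.66), against 4.53% of all genes, and 1 with all 6 arrays (median 0.22), against 1.44%. The 15 leukocyte markers all had a positive difference without OVA 2, against 8848 of all 20239 genes. The markers had a median of 0.66, and 2 of 15 had an unadjusted p under 0.05, against 4.53% of all genes. With all 6 arrays 10 of 15 were positive (median 0.13), against 11122 of all 20239 genes. For smooth muscle markers the mean was 11.06, 10.40 and 11.34 on the OVA arrays, against 11.05, 10.01 and 10.64 on the PBS arrays, so the groups overlapped. All 13 had a positive difference in both fits. Without OVA 2 the median was 0.62 and 4 of 13 had an unadjusted p under 0.05, against 4.53% of all genes. With all 6 arrays the median was 0.36 and 2 of 13 had such a p, against 1.44%. Other lists went the opposite way. Without OVA 2 the 11 epithelium markers were all negative, with a median of -0.39 and 6 lower at an unadjusted p under 0.05, against 4.78% of all genes. Of 8 club cell markers 4 were lower at that p (median -0.45), and of 10 endothelium markers 0 were (median -0.42). On both OVA arrays 7 of these 10 lay below every PBS array, against 16.8% of all genes. With all 6 arrays 5 epithelium, 3 club cell and 3 endothelium markers were lower at that p, against 3.1% of all genes. Their medians were then -0.38, -0.76 and -0.94. All 3 OVA arrays lay below every PBS array for 7 endothelium markers, against 7.83% of all genes. The part of these cells in the levels of the STAT6 targets was not tested.

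**Figure D4:**
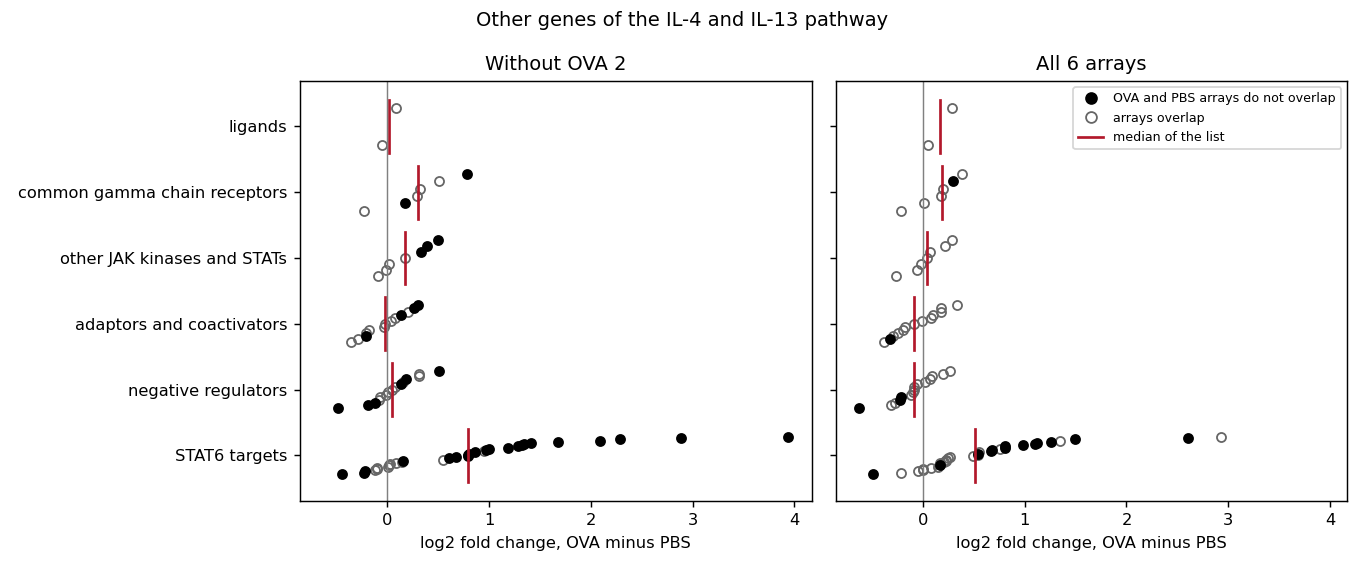
Log2 fold change, OVA minus PBS, of the 75 further pathway genes by list, without OVA 2 (left) and with all 6 arrays (right). Filled points are genes whose OVA and PBS arrays do not overlap, open points overlap, and red lines are list medians, which for STAT6 targets are 0.79 and 0.51.

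RefSeq promoters were at hand for 21 of the 32 targets, and 8 of these 21 (38.1%) held the STAT motif with either spacing, against 16.6% of all genes. The list was written with results of these arrays known, so this share is not independent evidence. It also counts 1 and the same stretch for both Chil3 and Chil4. Of the 12 targets with all OVA arrays above the PBS arrays, 6 had a promoter and 4 a match. These 4 are shown 5′ to 3′ on the strand of the gene with the match in capitals, to set their letters beside the measured levels, and were chosen after their values were seen. A match to these letters is a description of the sequence and not a binding site.
Retnla: aatcataaTTCACAAGAAattgctaa
Pdcd1lg2: tgctccagTTCCTCAGAAaccattct
Chil4: atacccacTTCTTAGAAacatagct
Serpinb2: tgccagctTTCCAAGAAgcatttcc
The match of Retnla begins at position -145 from the gene start (chr16:48842456-48842481 with its flanks), that of Pdcd1lg2 at -82 (chr19:29410829-29410854), that of Chil4 at -200 (chr3:106219663-106219687, minus strand) and that of Serpinb2 at -77 from the later of its 2 starts (chr1:107511425-107511449), all on GRCm38.p6. Retnla, which encodes a resistin-like protein of alternatively activated macrophages, had the largest difference of the 4, at 10.26, 9.48 and 10.39 on the OVA arrays, against 5.91, 7.56 and 8.86 on the PBS arrays. Chil4, a chitinase-like gene, was at 5.49, 4.82 and 5.59 on the OVA arrays, against 3.48, 4.51 and 4.60 on the PBS arrays. The promoter of its paralog Chil3 holds the same stretch, and transcripts of such close copies may share probes. Pdcd1lg2, which encodes the checkpoint ligand PD-L2, was 0.97 higher on the log2 scale (standard error 0.275) and Serpinb2, a serine protease inhibitor, 0.79 (standard error 0.173), both without OVA 2 and neither past the FDR threshold.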

How the data were processed

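The deposited values are log2 levels per probe set, which the authors background corrected, normalized over the 6 arrays and summarized. The submitters' notes name RMA and the affy package, and the study's methods name fitProbeLevelModel of the oligo package. For their versions and the build, the sources used here give nothing. Values were used as deposited. The probe set table names 20239 of 21225 probe sets with 1 symbol, and these were tested. The other 986 are unnamed here. Arrays have no read depth, so their number limits the precision.

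Differences were OVA minus PBS, fitted in R 4.3.3 by limma 3.58.1 (lmFit, then eBayes, with statmod 1.5.0 for the robust alternative). Tests were two-sided, and p-values were adjusted over all genes by Benjamini-Hochberg (FDR), with a threshold of 0.25. The methods left out 1 asthma array as an outlier in principal components analysis without naming it. It was taken as the OVA array farthest from the mean of the other 5 over all probe sets, which was OVA 2. All 6 arrays were fitted beside that. The code was tested on simulated data. Array weights were estimated gene by gene, chosen after seeing that the default estimate stopped before it converged.

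The members and gene lists were chosen with earlier results of these data known. Genes named by rule are the members, in each pathway list the 3 genes of lowest p and any that passed, Ptprc and Acta2, and the 5 genes most like Il13ra2. Named outside this rule, with their values known, are Egr2, Retnla, Chil4, Chil3, Pdcd1lg2 and Serpinb2. The same holds for the eosinophil markers Rnase2a, Alox15, Prg2, Epx and Siglecf. The alternatives were the arrays used, leaving out each array, a filter on low levels, quantile, median and cyclic loess normalization, a trended and robust variance, and the replicate block. Of the marker symbols, 7 were not matched. Promoters are those of RefSeq on GRCm38.p6. The staining, qPCR and traction data were not analysed here.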

Additional observations from a re-analysis of the deposited data

How the results depend on the processing

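Without OVA 2, 8 genes passed an FDR of 0.25. The count was 1 with all 6 arrays, 563 with all 6 arrays weighted, 1 without genes under the percentile 25 of level, 38 with the replicate block, and 0 (without OVA 3 or PBS 2) to 68 (without PBS 3) when 1 further array was left out. The weights were 0.0852 for OVA 2 and 1.05 to 3.3 for the others. With all 6 arrays 1 gene passed, with 3 after quantile normalization, 2 after median centring, 2 after cyclic loess, 2 with the replicate block and 0 to 8 with an array left out.

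For Il13ra2, leaving out 1 more array gave log2 fold changes of 1.97 (without OVA 3) to 2.59 (without OVA 1), with adjusted p of 0.125 to 0.747. Both ends come from a single OVA array, assumed to vary like the PBS arrays. All 6 arrays gave 1.99 (adjusted p = 0.635), and the weights 2.11 (adjusted p = 0.012). From all 6 arrays, leaving out 1 gave 1.69 to 2.28, and the call was made only without OVA 2. Other normalizations, the variance model and the replicate block gave 2.28 to 2.33 without OVA 2 (adjusted p = 0.131 to 0.191). The filter on low levels removed Il13ra2 and gives no value. All p-values are from limma.

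Of the genes that did not pass, signs turned when 1 array was left out for Il4ra (-0.058 to 0.023), Tyk2 (-0.060 to 0.14) and Socs1 (-0.058 to 0.080) without OVA 2, and for Il13ra1 (-0.16 to 0.32) and Socs1 (-0.0013 to 0.069) with all 6 arrays. Socs1 was also at -0.024 with weights, -0.00072 with quantile normalization and -0.0041 with the replicate block. The cause was not tested. Deviations from the group mean had correlations of -0.11, -0.04 and 0.01 between samples of 1 number. The OVA mean holds the outlying OVA 2, so these values cannot settle whether the labels' numbers pair the samples. PBS 2 has no partner once OVA 2 is left out.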
